A study of Homo sapiens with 6 samples.

Results

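The metallothionein genes MT1A, MT1E, MT1F, MT1G, MT1M, MT1X, MT2A and MT3 were examined together with MTF1 and SLC30A1, which sense and export zinc. These 10 genes were listed by name and matched by symbol among the 61552 genes of the deposited tables, and all 10 were found. The cells were NCI-H520, an established line of human squamous lung carcinoma labelled wild type and grown with 15% fetal bovine serum. One group received 2 µM cisplatin, which is a platinum compound that forms crosslinks in DNA, and the other phosphate-buffered saline (PBS). Both were collected at 48 h, with 3 libraries each. The series title concerns SOX2 condensates and drug resistance, and the comparison asks how mRNA levels differ after the drug.

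Metallothioneins are small cysteine-rich proteins that hold zinc, copper and cadmium through their thiols, and they can also bind platinum. MTF1 is the zinc finger transcription factor that senses free zinc and switches on metallothionein genes by binding metal response elements (MREs) in their promoters. SLC30A1, also called ZnT1, is the plasma membrane exporter that lowers cytosolic zinc, and its gene is another target of MTF1. Cells can therefore buffer a rise in zinc by binding it, by exporting it or by importing less of it through the ZIP family.

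RefSeq promoter sequences (GRCh38.p14, 250 bases before to 50 after the annotated start) matched 4 of the 10 genes. They are shown because MTF1 acts through these elements; capitals mark the letters TGCACNC or TGCGCNC on either strand, the core of an MRE.
MT1X promoter, chr16:56682220-56682519 (plus strand): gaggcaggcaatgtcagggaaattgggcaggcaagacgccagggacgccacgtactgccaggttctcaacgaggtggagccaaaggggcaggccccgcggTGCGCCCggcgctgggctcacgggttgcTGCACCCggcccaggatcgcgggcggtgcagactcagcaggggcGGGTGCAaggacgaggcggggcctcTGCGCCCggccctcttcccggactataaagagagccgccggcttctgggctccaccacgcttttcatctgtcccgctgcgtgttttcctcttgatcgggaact
MT2A promoter, chr16:56608334-56608633 (plus strand): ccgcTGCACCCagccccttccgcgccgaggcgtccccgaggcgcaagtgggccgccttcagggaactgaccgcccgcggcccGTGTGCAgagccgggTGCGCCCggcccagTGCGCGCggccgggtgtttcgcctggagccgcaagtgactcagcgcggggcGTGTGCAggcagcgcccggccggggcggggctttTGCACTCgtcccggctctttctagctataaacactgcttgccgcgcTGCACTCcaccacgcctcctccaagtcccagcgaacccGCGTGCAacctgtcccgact
SLC30A1 promoter, chr1:211579112-211579411 (minus strand): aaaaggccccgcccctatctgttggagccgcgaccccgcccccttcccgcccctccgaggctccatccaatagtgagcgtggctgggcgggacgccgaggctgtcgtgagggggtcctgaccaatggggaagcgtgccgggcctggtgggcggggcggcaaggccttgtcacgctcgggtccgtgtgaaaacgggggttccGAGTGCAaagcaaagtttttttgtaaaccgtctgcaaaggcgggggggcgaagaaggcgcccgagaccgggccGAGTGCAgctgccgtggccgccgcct
MTF1 promoter, chr1:37859543-37859842 (minus strand): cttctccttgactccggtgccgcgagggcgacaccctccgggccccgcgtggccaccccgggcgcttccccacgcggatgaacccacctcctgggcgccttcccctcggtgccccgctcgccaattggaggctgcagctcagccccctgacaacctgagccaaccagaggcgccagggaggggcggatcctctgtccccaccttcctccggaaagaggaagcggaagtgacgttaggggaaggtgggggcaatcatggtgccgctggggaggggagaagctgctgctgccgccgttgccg

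The MT2A promoter held 8 such matches, from position -246 to 37 relative to the start, and MT1X held 4, from -150 to -47. SLC30A1 held 2 and MTF1 held 0. Among 34943 promoters of the same length, 29.5% had at least 1 match, 8.58% at least 2, 0.598% at least 4 and 0.0200% at least 8. A TATA box (TATAAA on either strand) stood at -29 in MT2A and at -30 in MT1X, while the SLC30A1 and MTF1 windows had no match; 11.6% of promoters had one. The letters TGACNNNGC, the core of the antioxidant response element, were found on either strand as TGACTCAGC at -104 in MT2A, as TGACATTGC in MT1X and as TGACAAGGC in SLC30A1, and 13.3% of promoters held a match. In MT1X, 1 MRE match overlapped a GC box (GGGCGG). These are matches of letters and were not tested as binding sites.

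Library totals ran from 9121180 to 16724285 expected counts, and mitochondrially encoded genes took 3.26% to 4.13% of them under cisplatin and 4.15% to 6.05% under PBS. Markers of the labelled cell type were incomplete: SOX2 had 302 to 353 CPM under cisplatin and 281 to 327 CPM under PBS, while TP63 did not exceed 3 counts and DSG3 had 0 in any library. Of the 4 squamous markers tested, TRIM29 rose, with 22.2, 20.3 and 18.6 CPM under cisplatin and 9.83, 7.96 and 7.39 CPM under PBS (log2 fold change 1.29 ± 0.13, edgeR adjusted p = 3.5e-05), and SOX2, KRT5 and KRT6A were not called. Of the other marker lists, summed fibroblast markers stood at 23.0 to 24.5 CPM under cisplatin and 10.4 to 15.3 under PBS, nearly all from COL1A1, with COL3A1 at 0 throughout and DCN at 3 counts or fewer. Leukocyte markers stood at 3.30 to 4.09 CPM under cisplatin and 0.670 to 1.32 under PBS, mostly LYZ, with PTPRC and CD3E at 0 throughout. Alveolar markers stood at 7.22 to 7.57 CPM under cisplatin and 3.46 to 4.67 under PBS, almost all NKX2-1; neuroendocrine markers stood at 7.93 to 8.89 CPM under cisplatin and 8.68 to 12.3 under PBS, mostly INSM1 and SYP, with NEUROD1 at 0. Endothelial markers, VWF and PECAM1 among them, stood at 0.199 to 0.891 CPM under cisplatin and 0.0658 to 0.837 under PBS. Their part in the metallothionein results was not tested. Whether the replicates came from separate cultures is not in the labels; the spread that the p-values measure is that of these libraries alone and may be technical.

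Cisplatin-treated cells held more mRNA of 3 metallothioneins, MT1X, MT3 and MT1F, and, by counts, less mRNA of the zinc sensor MTF1. The groups overlapped in MTF1 TPM, and MTF1 was not called under the settings that use each library's effective length. MT2A, the most abundant metallothionein, was not called. The exporter SLC30A1 was lower in each cisplatin library than in any PBS library but narrowly missed the threshold. Of the 10 genes, 6 passed the filter on low counts; 3 of these rose, 1 fell and 2 were not called. Across the whole table, 38.2% of 15063 tested genes were called, 18.9% higher and 19.3% lower. The median log2 fold change of the 6 tested members was 0.65, beside -0.00035 over all tested genes. The filter can admit a low gene through the group where it is high. MT3, with 4 to 6 counts in the PBS libraries, and MT1F, with 4 to 12, passed it through the cisplatin libraries. That median therefore describes only the members that passed, and the number of members that rose carries the same limit. In bulk RNA, fewer cells that express a gene and less mRNA per cell cannot be told apart. Unless another tool is named, tests used edgeR's quasi-likelihood test on rounded expected counts, with Benjamini-Hochberg adjustment over all tested genes and a threshold of 0.05.

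**Figure D1:**
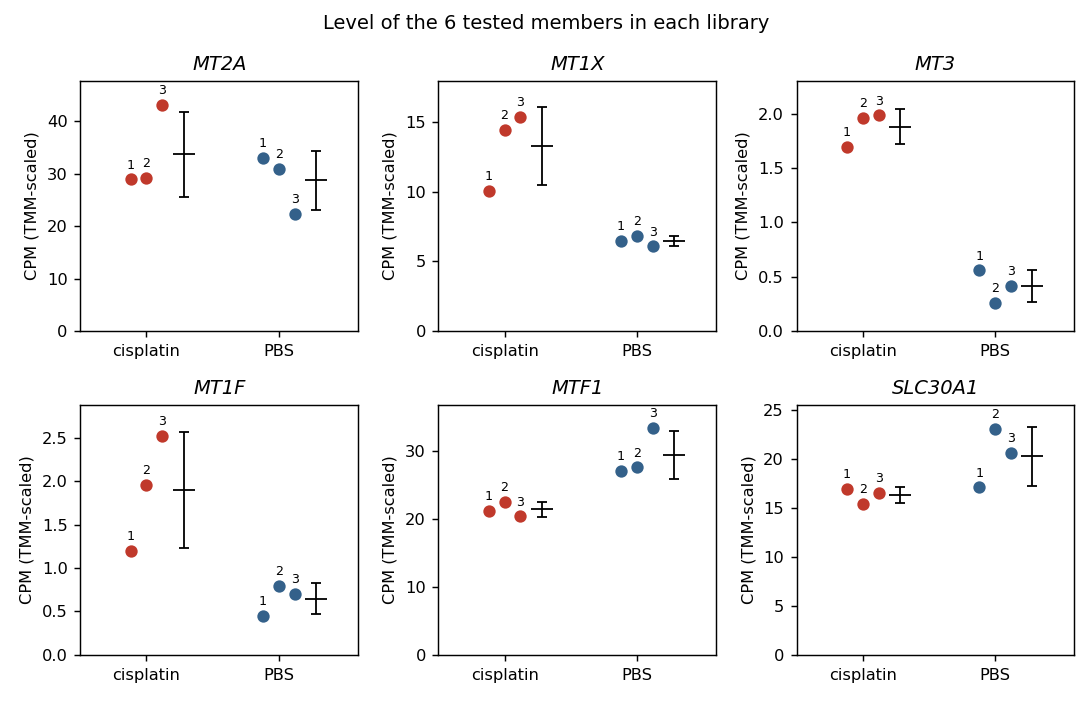
Level of the 6 tested members in each library, in CPM (counts scaled to library size, y axes from 0); points are libraries with their replicate number, and the bar beside each group is the mean with its SD (n = 3). The groups do not overlap for MT1X, MT3 and MT1F, which are higher under cisplatin, or for MTF1 and SLC30A1, which are lower, while MT2A overlaps.

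MT2A encodes the ubiquitous class 2 metallothionein (ENSG00000125148; GRCh38 chromosome 16, 56608199 to 56609497). It had 28.9, 29.1 and 43.1 CPM in cisplatin libraries 1, 2 and 3, against 33.1, 30.8 and 22.3 CPM in PBS libraries 1, 2 and 3. The groups overlapped, with cisplatin library 3 the highest and PBS library 3 the lowest. The log2 fold change was 0.25 ± 0.17 (SE; edgeR adjusted p = 0.256). The fold change had a 95% interval that ran from 0.926 to 1.54. Without cisplatin replicate 3 the log2 fold change of MT2A was 0.03, and without PBS replicate 3 it was 0.09. On the TPM scale, which divides by the effective length of the transcript, MT2A averaged 449 ± 60.0 under cisplatin and 451 ± 32.4 under PBS (SD, n = 3).

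The length of the sequenced fragments moved with this spread. The 4 tested metallothioneins have transcripts little longer than the fragments: the deposited MT2A transcript length averaged 402 bases, and the mean fragment length was 341, 342 and 325 bases in cisplatin libraries 1 to 3, against 338, 349 and 351 bases in PBS libraries 1 to 3. The effective length of MT2A, the number of places where a fragment can start, was 73.0, 72.1 and 83.8 bases under cisplatin and 74.4, 66.4 and 64.7 bases under PBS. The library with the shortest fragments had the highest MT2A count share and the library with the longest fragments the lowest. The part of fragment length in these results was not tested beyond the length-adjusted values given here. Among all tested genes, the 229 with an effective length under 200 bases had a median log2 fold change of 0.25, with 72 called higher and 51 lower. The 72 were 31.4% of these short genes. Over all tested genes, 18.9% were called higher and 19.3% lower.

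**Figure D2:**
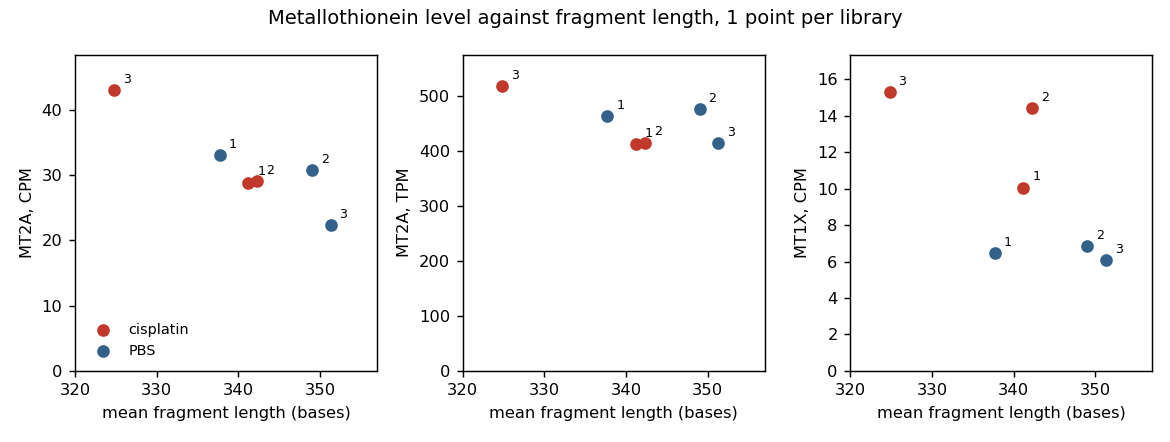
MT2A in CPM, MT2A in TPM and MT1X in CPM (y axes from 0) against the mean fragment length of each library in bases; 1 point per library, numbered by replicate. MT2A CPM is highest in cisplatin library 3, which has the shortest fragments (325 bases). It is lowest in PBS library 3, which has the longest (351 bases). MT1X CPM has its highest and lowest values in the same libraries, at 15.3 and 6.07, and its groups do not overlap.

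MT1X, a class 1 metallothionein (ENSG00000187193; chromosome 16, 56682424 to 56684196), rose under cisplatin. It had 101, 162 and 255 counts in cisplatin libraries 1, 2 and 3, against 58, 104 and 87 counts in PBS libraries 1, 2 and 3. Scaled by library size these were 10.1, 14.4 and 15.3 CPM under cisplatin and 6.48, 6.84 and 6.07 CPM under PBS. Every cisplatin library lay above every PBS library. The groups did not overlap, in either direction, for 49.7% of all tested genes and for 5 of the 6 tested members. Those 5 include MT3 and MT1F, which passed the filter on low counts through the cisplatin libraries. The count of 5 therefore carries the limit given above for the median and cannot be read against the 49.7%. The fold change was 2.07 (95% interval 1.61 to 2.66); on the log2 scale MT1X rose by 1.05 ± 0.17 (SE; edgeR adjusted p = 5.2e-04). On the TPM scale the groups also stayed apart, with 122, 182 and 169 TPM under cisplatin and 79.8, 98.0 and 99.5 TPM under PBS. The size depended on how length was treated: limma on log2(TPM + 1) gave 0.75 (adjusted p = 0.0123), an offset of each library's effective length 0.86 (edgeR adjusted p = 0.0114), and a straight-line correction for transcript length 0.57 (edgeR adjusted p = 0.0138). In the annotation 18.1% of the exonic bases of MT1X lie in ENSG00000259827 on the same strand, which had 0 counts.

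MT3 (ENSG00000087250; chromosome 16, 56589074 to 56591088), known as the growth inhibitory factor of brain, rose and was low in both groups. It had 17, 22 and 33 counts in the cisplatin libraries, against 5, 4 and 6 counts in the PBS libraries. MT3 passed the filter on low counts through the cisplatin libraries. The levels were 1.69, 1.96 and 1.98 CPM under cisplatin and 0.558, 0.263 and 0.418 CPM under PBS, without overlap. The log2 fold change was 2.24 ± 0.35 (SE; edgeR adjusted p = 5.1e-04), a fold change of 4.73 (95% interval 2.78 to 8.04). The call held under all 17 alternatives that tested MT3, with log2 fold changes between 1.75 and 2.45.

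MT1F (ENSG00000198417; chromosome 16, 56657694 to 56660698), another class 1 gene, also rose. It had 12, 22 and 42 counts in the cisplatin libraries, against 4, 12 and 10 counts in the PBS libraries. MT1F too passed the filter through the cisplatin libraries. Scaled by library size, MT1F stood at 1.20, 1.96 and 2.52 CPM under cisplatin and 0.447, 0.789 and 0.697 CPM under PBS, again without overlap. The log2 fold change of MT1F was 1.53 ± 0.36 (SE; edgeR adjusted p = 0.00567), with a 95% interval of 1.68 to 4.98 for the fold change. It was called under all 17 alternatives that tested it, the highest adjusted p being 0.0430 in edgeR without cisplatin replicate 3.

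The other 4 metallothioneins were too low for the filter, and their counts are given without a call. MT1G had 3, 5 and 9 counts in the cisplatin libraries, against 1, 1 and 0 in the PBS libraries, so the groups did not overlap. The ratio of its summed counts per library size was 8.63, with an exact binomial 95% interval of 2.05 to 77.0 that covers counting error only. With no filter on low counts, edgeR put MT1G higher by 2.86 ± 0.98 on the log2 scale (SE, adjusted p = 0.0206), an estimate that depends on the prior count. It is not counted as a call here. The fit without the filter also gave MT1X a far smaller edgeR adjusted p, 8.1e-10 against 5.2e-04 with the filter. MT1A had 1, 8 and 10 counts under cisplatin and 2, 7 and 3 under PBS, and MT1E had 2, 2 and 9 under cisplatin and 6, 1 and 2 under PBS; both overlapped. MT1M had 0, 1 and 0 counts under cisplatin and 2, 0 and 0 under PBS, which never passed the floor of 3 counts per library; its ratio of 0.508 had an exact binomial 95% interval of 0.00861 to 9.76. Of 5 further metallothionein genes listed, MT4 had 4, 0 and 3 counts under cisplatin and 0, 1 and 1 under PBS, and the other 4, MT1B among them, had 0 in all 6 libraries.

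Per length, the order of the levels was led by MT2A in every library, followed by MT1X. Below them MT3 averaged 23.0 ± 2.21 TPM under cisplatin and 6.19 ± 2.26 TPM under PBS, and MT1F averaged 17.8 ± 5.56 TPM under cisplatin and 5.86 ± 1.83 TPM under PBS (SD, n = 3). MT3 and MT1F overlapped each other within each group. MT1A averaged 6.72 ± 4.77 TPM under cisplatin and 5.09 ± 2.30 TPM under PBS, and MT1G 5.01 ± 1.06 TPM under cisplatin and 0.793 ± 0.731 TPM under PBS. MT1E and MT1M averaged 0.443 to 1.09 TPM in either group. These TPM values rest on short effective lengths, apart from MT1E, and so magnify small counts.

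Reads could be assigned to the wrong one of these genes, since the coding sequences of the 7 class 1 and 2 members were 88.5% to 95.1% identical over 21 pairs. MT3 stood apart, at 73.0% to 76.0% identity with the others. A sum of counts over the family cannot be moved by such exchange, whereas a sum of TPM can, since effective lengths differ. The tables name 21 metallothionein genes and pseudogenes, of which 10 had 0 counts in all 6 libraries. Their sum was 43.0, 49.3 and 64.9 CPM in cisplatin libraries 1 to 3, against 41.9, 39.5 and 30.0 CPM in PBS libraries 1 to 3. The cisplatin libraries were all higher, by 1.41-fold in the mean, but cisplatin library 1 exceeded PBS library 1 by little. Over the 8 listed metallothioneins alone the CPM sum was 42.5, 48.9 and 64.6 under cisplatin and 41.8, 39.3 and 29.8 under PBS, also without overlap. Summed TPM of all 21 was 617, 738 and 765 under cisplatin and 566, 604 and 545 under PBS. This was 1.24-fold in the mean and without overlap, but part of it rested on very short effective lengths. MT4, at 8.80 bases in the mean, gave 41.1, 0 and 18.2 TPM under cisplatin and 0, 9.39 and 11.7 TPM under PBS. The pseudogene MT1XP1 gave 74.5 TPM in cisplatin library 2 from 1 count and 0 in every other library. Summed TPM of the 8 listed metallothioneins was 574, 660 and 746 under cisplatin and 565, 594 and 533 under PBS, 1.17-fold in the mean, and the groups overlapped. MT2A supplied 67.1%, 59.0% and 66.4% of the family's counts under cisplatin and 78.9%, 78.2% and 74.4% under PBS. The ratio of MT1X to MT2A counts within a library, genes of similar transcript length, was 0.348, 0.495 and 0.356 under cisplatin and 0.196, 0.222 and 0.272 under PBS, without overlap.

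**Figure D3:**
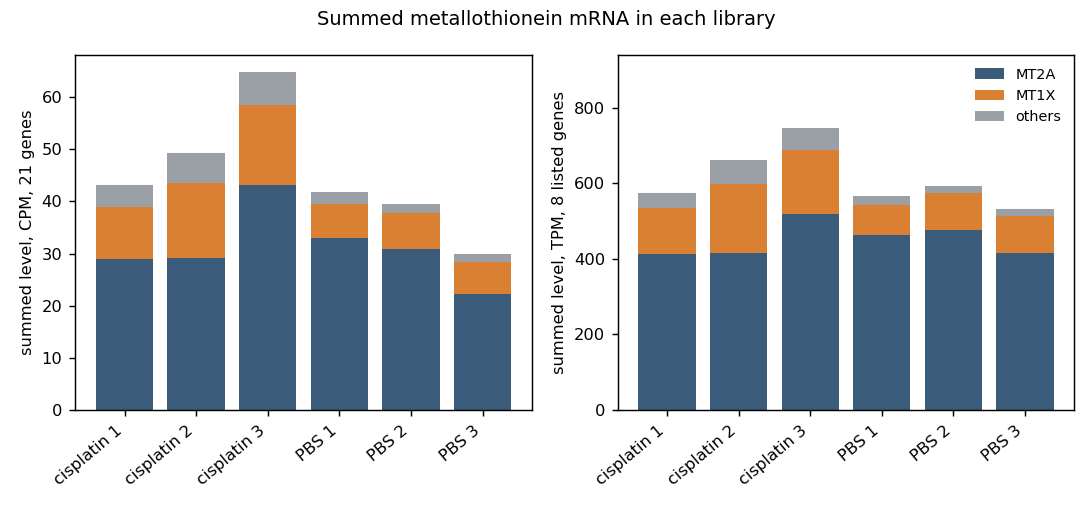
Summed metallothionein mRNA in each library, cisplatin on the left: CPM over all 21 named genes and pseudogenes (left panel) and TPM over the 8 listed genes (right panel), bars from 0 and divided into MT2A, MT1X and the others. MT2A is the largest part of every bar, and the share of MT1X and the others is larger in the cisplatin libraries.

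MTF1 (ENSG00000188786; chromosome 1, 37809567 to 37859620, minus strand), the zinc sensor, fell. It had 21.2, 22.5 and 20.4 CPM in the cisplatin libraries, against 27.0, 27.6 and 33.4 CPM in the PBS libraries. Each cisplatin library lay below each PBS library, and the 3 cisplatin values were close together. The log2 fold change was -0.46 ± 0.11 (SE; edgeR adjusted p = 0.00509), a fold change of 0.725 (95% interval 0.618 to 0.852). On the TPM scale MTF1 had 3.98, 4.49 and 2.7 TPM under cisplatin and 3.71, 3.93 and 5.29 TPM under PBS, which overlapped. The deposited mean transcript length of MTF1 was 5899, 5492 and 7937 bases in cisplatin libraries 1 to 3, against 7937, 7525 and 7937 bases in PBS libraries 1 to 3. The call was lost with limma on log2(TPM + 1) (-0.18, adjusted p = 0.549) and with the effective length offset (-0.13, edgeR adjusted p = 0.608). The other 16 alternatives called MTF1 lower, with edgeR adjusted p down to 7.8e-04. Of the 1354 tested genes with an effective length over 5000 bases, 676 were called lower (49.9%), beside 19.3% of all tested genes, and their median log2 fold change was -0.31.

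SLC30A1 (ENSG00000170385; chromosome 1, 211571568 to 211578742, minus strand), the zinc exporter, was not called. It had 16.9, 15.4 and 16.5 CPM in the cisplatin libraries, against 17.1, 23.0 and 20.6 CPM in the PBS libraries. The groups did not overlap, although PBS library 1 was only just above cisplatin library 1. The log2 fold change was -0.33 ± 0.12 (SE; edgeR adjusted p = 0.0504), and the fold change of 0.798 had a 95% interval of 0.665 to 0.958 before adjustment. It was called without PBS replicate 1 (-0.42, edgeR adjusted p = 0.0176) and among protein-coding nuclear genes only (-0.32, edgeR adjusted p = 0.0487). The highest adjusted p among the alternatives came with the straight-line correction for transcript length (-0.18, edgeR adjusted p = 0.256). SLC30A1 had a mean effective length of 5553 bases, and tested genes over 5000 bases had a median log2 fold change of -0.31.

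**Figure D4:**
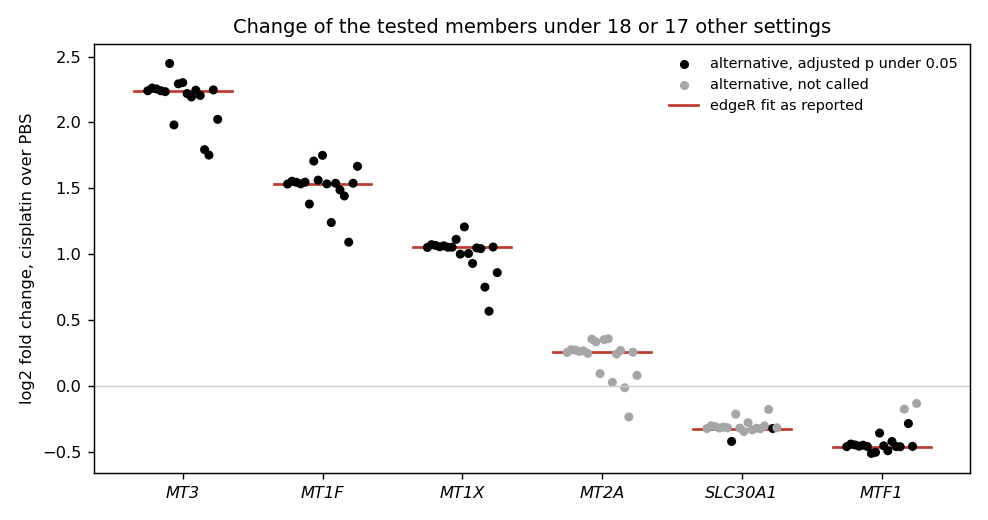
Log2 fold change of each tested member, cisplatin over PBS, as reported (red line) and under each other setting of scaling, filter, tool, length correction or left-out library (points; black with an adjusted p under 0.05). MT3, MT1F and MT1X stay above 0 and called throughout, MT2A lies on both sides of 0, and the 2 settings without a call for MTF1 are those that use each library's effective length.

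Of 18 other zinc transporters tested, 4 were called, all lower, a smaller share than the 38.2% of all tested genes called; 19.3% of all tested genes were called lower. Of 9 further ZnT exporters 7 were tested, with 0 higher and 1 lower, and of 14 ZIP importers 11 were tested, with 0 higher and 3 lower in edgeR. Over these 18 genes the median log2 fold change was -0.10. At an unadjusted p under 0.05, 0 were higher and 7 lower; DESeq2 called 0 higher and 3 lower, and limma-voom 0 and 4. The largest change was in SLC39A10, a ZIP importer whose gene MTF1 represses in mouse. It had 26.2, 23.6 and 24.9 CPM under cisplatin and 46.9, 48.6 and 42.9 CPM under PBS, with no overlap. Its log2 fold change was -0.89 ± 0.09 (SE; edgeR adjusted p = 3.1e-05), and all 18 alternatives called it. SLC39A14, an importer of zinc and iron, had 80.0 ± 4.34 CPM under cisplatin and 99.8 ± 7.33 CPM under PBS (log2 fold change -0.32 ± 0.08, edgeR adjusted p = 0.00889); limma on log2(TPM + 1) did not call it (adjusted p = 0.0550). SLC39A6, another importer, fell by 0.33 (edgeR adjusted p = 0.0426) and SLC30A7, which loads zinc into the Golgi, by 0.34 (edgeR adjusted p = 0.0291). SLC39A6 lost its call under 9 of 18 alternatives, with an adjusted p up to 0.189, and SLC30A7 under 7, with an adjusted p up to 0.318.

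**Figure D5:**
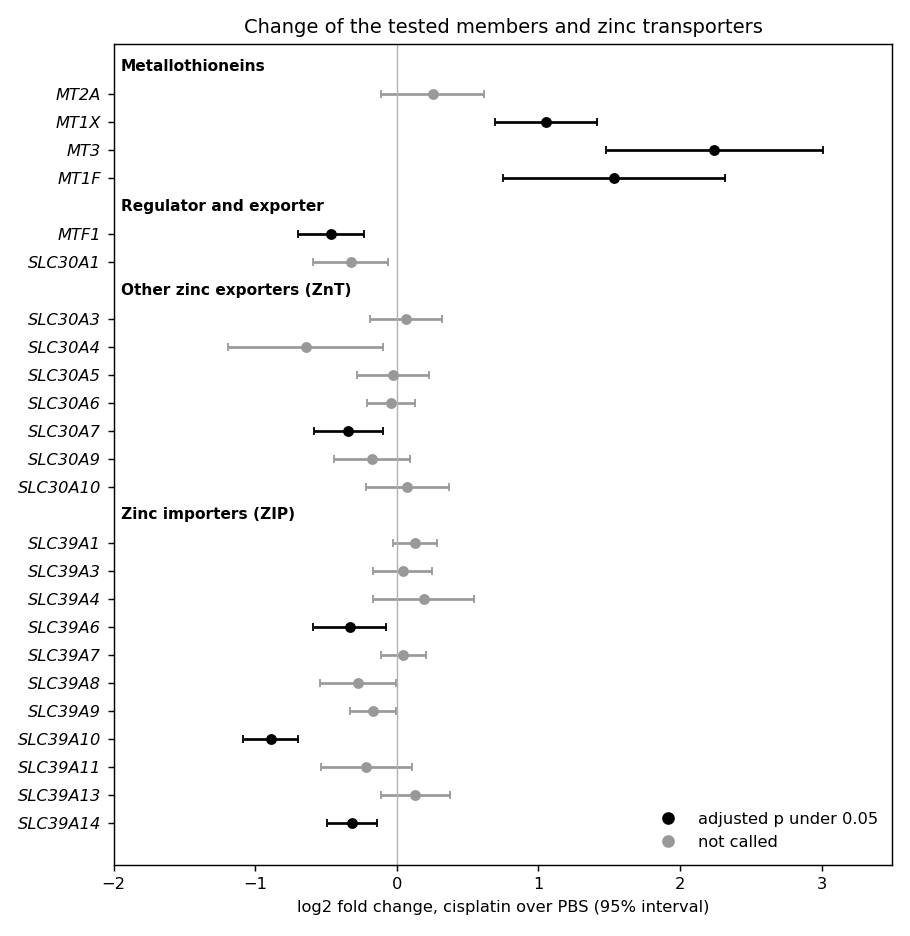
Log2 fold change, cisplatin over PBS, of the 6 tested members and the 18 other tested zinc transporters; points are edgeR estimates, bars their 95% intervals before adjustment, and black marks an adjusted p under 0.05. The called metallothioneins lie above 0 and the called transporters below 0, SLC39A10 furthest.

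Of 7 factors that act at metallothionein promoters, all were tested, 1 rose and 4 fell. Over all tested genes, 18.9% were called higher and 19.3% lower. The acetyltransferase EP300 fell by 0.83, the GC box factor SP1 by 0.51 and the glucocorticoid receptor NR3C1 by 0.61 (edgeR adjusted p = 2.5e-05, 1.8e-04 and 8.3e-04). EP300, SP1 and NR3C1 are long, with mean effective lengths of 6354, 6650 and 6003 bases. Of tested genes over 5000 bases, 49.9% were called lower, with a median log2 fold change of -0.31. All 18 alternatives called each of them lower, and the part of length was not tested further. STAT3 rose by 0.31 (edgeR adjusted p = 0.0134). STAT3 was not called without cisplatin replicate 1, with limma on log2(TPM + 1) or with the effective length offset, where its adjusted p reached 0.388. Glucocorticoid response genes, a second class of stimulus known for metallothioneins, gave 2 higher (SGK1 by 0.41, TSC22D3 by 0.60) and 2 lower (ZBTB16 at -0.71, FKBP5 at -0.32) of 8 tested. TSC22D3 lost its call under 3 of 18 alternatives, FKBP5 under 8 and SGK1 under 1, with adjusted p up to 0.166, 0.152 and 0.0756.

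Genes that respond to metals and oxidants alongside metallothioneins went both ways, with 3 higher and 7 lower of 16 tested and a median of -0.23. The shares over all tested genes were 18.9% higher and 19.3% lower. Heme oxygenase HMOX1 had 20.5, 21.1 and 20.4 CPM under cisplatin and 11.9, 10.5 and 11.1 CPM under PBS (log2 fold change 0.89, edgeR adjusted p = 9.2e-05). The small heat shock protein CRYAB rose by 1.41 and the NRF2 target OSGIN1 by 0.34, whereas the chaperone HSPA1B fell by 0.66, thioredoxin reductase TXNRD1 by 0.49 and the glutathione synthesis enzyme GCLC by 0.39. CRYAB shares 20.6% of its exonic bases with HSPB2 on the opposite strand, which had 2 counts in all. It also shares 18.1% with HSPB2-C11orf52 on the opposite strand, which had 53 counts and was not called (log2 fold change 1.07). HSPA1B shares 36.5% with ENSG00000285565 on the same strand, which had 71 counts. HSPA1B also has a near-identical copy, HSPA1A, and the split of reads between them is uncertain. HSPA1A was called lower as well, by 0.39 (edgeR adjusted p = 0.00529). OSGIN1 lost its call under 4 of 18 alternatives, with an adjusted p up to 0.185.

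Genes of copper handling gave 2 higher and 2 lower of 10 tested, a share near the 38.2% of all tested genes that were called. The superoxide dismutase copper chaperone CCS rose by 0.62 and ATOX1, which hands copper to export pumps, by 0.59, while the metalloreductase STEAP3 fell by 1.27 and SCO1 by 0.29. ATOX1 was not called with the transcript length line (0.22, edgeR adjusted p = 0.129), and SCO1 changed direction on TPM. Of 8 iron genes tested, 1 was called higher and 3 lower, where 38.2% of all tested genes were called in either direction. Ferritin light chain FTL rose by 0.41 and the transferrin receptor TFRC fell by 0.62. SLC11A2 and IREB2, also called lower, lost their calls under 12 and 11 of 18 alternatives.

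Of 9 genes beside the metallothionein cluster on chromosome 16, 7 were tested and 5 of these were not called. BBS2, of the primary cilium, was higher by 0.47 and the G protein subunit GNAO1 lower by 1.20, where 18.9% of all tested genes were called higher and 19.3% lower. The median of the 7 was 0.07. BBS2 was not called by limma on log2(TPM + 1) (adjusted p = 0.0566).

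By the mean absolute difference of centred log2 CPM over the 6 libraries, the protein-coding genes most like MT1X were RCN3 (0.0701), SLC38A3 (0.0774), PDLIM2 (0.0888), TMEM54 (0.0959) and TNFSF10 (0.0977). Their log2 fold changes, 0.91 to 1.22, follow from this choice and are no separate result. Those most like MT2A were RPL36 (0.0353), RPS28 (0.0464), MRPL52 (0.0488), COX5B (0.0685) and KRTCAP2 (0.0759), chosen in the same way. The mean effective lengths of the 5 genes most like MT2A were 199 to 350 bases, against 470 to 2510 bases for the 5 genes most like MT1X. MT2A and MT1X themselves had similar mean effective lengths, 72.4 and 81.4 bases. Whether length played a part in these patterns was not tested.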

How the data were processed

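RNA was extracted with TRIzol, and libraries were made from 1.5 µg of it with an ABclonal kit, per the labels' protocols. The authors deposited, for each library, expected counts per gene (not normalized) and TPM, with transcript and effective lengths, under the column names of RSEM per the file headers; their FPKM was not used. STAR 2.7.9 and GRCh38 are named in the submitters' processing notes. Annotation release, quantifier version and strand use: not given in the sources used here.

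Symbols named 61399 of 61552 genes, and positions came from GENCODE 29 (58352 genes). The rounded expected counts entered edgeR 4.0.16 (R 4.3.3), filtered by filterByExpr (minimum count 10, total 15) and scaled by TMM; group was the only term of the quasi-likelihood test, and calls needed an adjusted p under 0.05. The standard error is the log2 fold change over the square root of F. CPM use TMM-adjusted library sizes. The mean fragment length is transcript minus effective length, plus 1. Alternatives used DESeq2 1.42.0, limma 3.58.1, a prior count of 2 and a pseudocount of 1. Between replicates the chi-square per degree of freedom was 2.99 to 20.6, and 0 pairs were identical. The tests were checked on simulated counts.

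Members and lists were chosen with earlier results of these data known. Genes named were all members; up to 3 called genes per direction and list, or the 2 most abundant where 0 were called; and the 5 genes most like MT1X and MT2A. TP63, DSG3, KRT5, KRT6A, SOX2 and the markers given at 0 or at 3 counts or fewer were named after their values were seen. Intervals on counts and the floor of 3 counts cover counting error only.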

Additional observations from a re-analysis of the deposited data

How the results depend on the processing

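Limma on log2(TPM + 1) called 2861 genes, 1208 higher and 1653 lower, against 5752 in edgeR on counts, with 0 members lower and 2 zinc transporters lower. A filter of 50 counts in 3 samples tested only 4 members and called 2 (1 higher), because MT3 and MT1F do not reach it. The transcript length line left 2 zinc transporters lower. The effective length offset, chosen after the data were seen, left 0 members lower, and protein-coding nuclear genes only gave 2, with SLC30A1. Leaving out each library gave 4205 to 5283 called genes, 4 to 5 called members (1 to 2 lower) and 2 to 5 zinc transporters lower; the count was 2 without PBS replicate 2 and without cisplatin replicate 1. Directions turned for MT2A (-0.015 on TPM, -0.24 with the length line), SCO1 (0.036 on TPM, 0.12 with the effective length offset), IREB2 (0.094, offset), RPL36 (-0.060, length line), MRPL52 (-0.030 on TPM, -0.13, length line) and KRTCAP2 (-0.14, length line); the cause was not tested. The log2 ratio of the summed metallothionein level, 0.50, ran from 0.32 to 0.62 without single libraries, and was 0.31 on TPM and 0.23 on TPM of the 8 listed genes.

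With the replicate number as a block, edgeR called 5819 genes and 4 members. Same-numbered libraries had correlations of 0.0658, 0.123 and -0.0760 between their deviations from the group means. Not every library correlated best with its own number. With 3 libraries per group such correlations cannot settle whether equal numbers pair cultures or days, and the labels do not say. Depth limits MT1A, MT1E, MT1G and MT1M, none of which exceeded 10 counts in a library.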
